A study of Mus musculus with 14 samples.

Results

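Expression of 10 immediate-early genes was compared across 14 RNA-seq libraries of microglia sorted from mouse retina. They are Fos, Fosb, Jun, Junb, Jund, Egr1, Atf3, Ier2, Dusp1 and Btg2, a set also known for responding to tissue dissociation, and were taken by symbol. All 10 of 10 symbols were among the 35735 genes of the deposited expression table, and 9 of the 10 were among the 7605 genes with enough reads to be tested. Jund, with 1 to 11 reads per library, was not tested.

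The libraries form 4 groups: APOE E4/E4 mice after a microbead injection (APOE4 microbead, n = 3), APOE E4/E4 mice after a sham injection (APOE4 sham, n = 4), APOE E3/E3 mice after a microbead injection (APOE3 microbead, n = 3) and APOE E3/E3 mice after a sham injection (APOE3 sham, n = 4). All mice were 12 weeks old, and each library came from 1 retina. Microbeads in the eye obstruct the outflow of fluid and serve as a model of glaucoma. After a Percoll gradient, cells positive for CD11b and Fcrls and negative for Ly6c were sorted, 100 to 600 per retina, and 100 to 300 of them went into 5 µl of lysis buffer. The labels do not state that retinas came from separate animals, so the p-values measure the spread between these samples, which may be technical.

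Immediate-early genes are transcribed within minutes of a stimulus, from factors already present in the cell, without new protein synthesis. Kinase cascades activate SRF with its ternary complex partners, CREB and related factors at the promoters of these genes, and the products include the FOS and JUN proteins that pair into the transcription factor AP-1. Their mRNAs decay fast, and microglia are known to induce them during the isolation of cells from tissue as well as in the living animal.

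The genes varied together between libraries, as described further on, and whether their promoter letters bear on that was not tested. RefSeq promoter sequences (GRCm38.p6) were at hand for 8 of the 10 genes, not for Egr1 and Ier2, and the 250 bases before the transcription start were searched on both strands. TGACGT, the core of the cAMP response element bound by CREB and ATF proteins, was present in 4 of the 8 promoters, those of Fos, Atf3, Btg2 and Dusp1. It was present in 6.47% of all 32851 promoters and in 10.01% of the 7569 promoters of genes tested. The full palindrome TGACGTCA, which contains that core, was present in Btg2 and Dusp1, in 1.55% of all promoters and in 2.51% of those of genes tested. TGACATCA, a variant of the AP-1 site, was present in Jun alone of the 8 and in 2.93% of all promoters (1.49% for genes tested). The EGR site GCGGGGGCG was present in Fosb alone and in 2.57% of all promoters (4.73% for genes tested). TGACTCA, the AP-1 site, was in none of the 8 windows, in 4.46% of all promoters and in 3.14% of those of genes tested. The CArG box of SRF, searched in its exact form only, was in none of the 8 and in 1.47% of all (0.96% for genes tested). Sites further upstream, and the promoters of Egr1 and Ier2, were outside this search. The 5 promoters with a cAMP response element core or TGACATCA are printed 5′ to 3′ on the strand of the gene, with those letters in capitals on whichever strand they occur.
Fos, chr12:85473640-85473889, plus strand: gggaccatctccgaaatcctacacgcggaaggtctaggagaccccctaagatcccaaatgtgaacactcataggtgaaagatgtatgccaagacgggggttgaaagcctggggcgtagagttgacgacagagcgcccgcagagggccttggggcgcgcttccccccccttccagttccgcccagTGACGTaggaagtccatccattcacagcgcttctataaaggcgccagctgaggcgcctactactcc
Jun, chr4:95052223-95052472, minus strand: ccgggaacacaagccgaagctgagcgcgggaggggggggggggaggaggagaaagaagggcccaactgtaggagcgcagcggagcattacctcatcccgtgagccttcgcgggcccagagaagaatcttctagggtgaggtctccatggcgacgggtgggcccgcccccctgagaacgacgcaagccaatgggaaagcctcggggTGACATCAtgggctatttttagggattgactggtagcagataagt
Atf3, chr1:191183334-191183583, minus strand: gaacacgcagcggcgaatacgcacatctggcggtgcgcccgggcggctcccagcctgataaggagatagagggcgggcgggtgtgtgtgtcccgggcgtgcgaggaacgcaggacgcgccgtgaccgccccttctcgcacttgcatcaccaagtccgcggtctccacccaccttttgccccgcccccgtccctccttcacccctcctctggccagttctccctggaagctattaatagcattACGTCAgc
Btg2, chr1:134079156-134079405, minus strand: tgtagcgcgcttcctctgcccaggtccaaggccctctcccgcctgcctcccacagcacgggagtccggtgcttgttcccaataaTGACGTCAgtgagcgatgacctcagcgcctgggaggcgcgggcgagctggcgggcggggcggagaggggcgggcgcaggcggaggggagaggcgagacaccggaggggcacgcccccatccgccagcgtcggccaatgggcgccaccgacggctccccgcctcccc
Dusp1, chr17:26508473-26508722, minus strand: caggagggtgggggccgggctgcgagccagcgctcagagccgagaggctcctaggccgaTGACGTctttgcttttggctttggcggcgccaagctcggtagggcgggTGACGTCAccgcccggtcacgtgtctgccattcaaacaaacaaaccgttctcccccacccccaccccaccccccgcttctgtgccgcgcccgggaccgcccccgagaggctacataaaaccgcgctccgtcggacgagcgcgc

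The core began 66 bases before the start in Fos. In Dusp1 one core began 191 bases before the start and a full palindrome 143 bases before it, and in Btg2 the palindrome began 166 bases before the start. In Atf3 the core was read on the opposite strand, 8 bases before the start. The AP-1-like letters of Jun began 45 bases before its start.

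For the most abundant coding transcript of each gene (GENCODE M21), 4 of 10 had a single exon, Jun, Junb, Jund and Ier2, against 1.38% of 7314 coding genes tested. The median was 2.5 exons in the 10 genes and 9 exons in the coding genes tested, and the median transcript spanned 3286.5 bases of genome in the 10 genes and 20958 bases in the coding genes tested. The AU-rich nonamer TTATTTATT, an element of unstable mRNAs, was present in the 3′ UTR of Fos and Dusp1, 2 of 10, and in 7.68% of the coding genes tested. The first site of each is printed with its nonamer in capitals (GRCm38).
Fos: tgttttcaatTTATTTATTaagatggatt
Dusp1: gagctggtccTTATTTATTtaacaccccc

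The depth was 451480 to 727901 estimated reads per library. Because 12 satellite repeat genes took 38.6% to 65.3% of them, 226374 to 447192 reads per library remained for other genes. The satellite genes took 80.5% to 91.3% of the TPM (a relative unit corrected for transcript length), so TPM of every other gene moves with that share. Comparisons between libraries are therefore given in CPM, read counts relative to TMM-scaled library size, and TPM is used to set the genes against each other. The microglial markers P2ry12 (167 to 1062 CPM), Tmem119 (497.5 to 1585 CPM), Fcrls (77.2 to 281 CPM) and Itgam (144 to 519.9 CPM) were present in every library. Ly6c2 was between 0 and 6.62 CPM. The 10 rod photoreceptor markers were all tested and summed to 161 to 1988 CPM over all libraries. The 12 monocyte markers summed to 1382 to 6996 CPM in APOE3 microbead libraries and to at most 1399 CPM in any other. Only 4 of these 12 had enough reads to be tested, so their sum can rest on few genes.

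Per length, Junb was the most abundant of the set, with a median of 82.9 TPM over the 14 libraries. Dusp1 followed with a median of 31.7 TPM, Egr1 with 22.3, Fos with 18.9, Jun with 16.5, Btg2 with 13.4 and Ier2 with 13.3 TPM. Atf3 had 3.92, Jund 2.87 and Fosb 0.694 TPM as medians. The spread between libraries was wider than these steps: Junb ranged over 16.9 to 497 TPM, Dusp1 over 0.822 to 301 TPM and Fos over 0 to 180.4 TPM. Each gene overlapped its neighbours in this order.

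**Figure D1:**
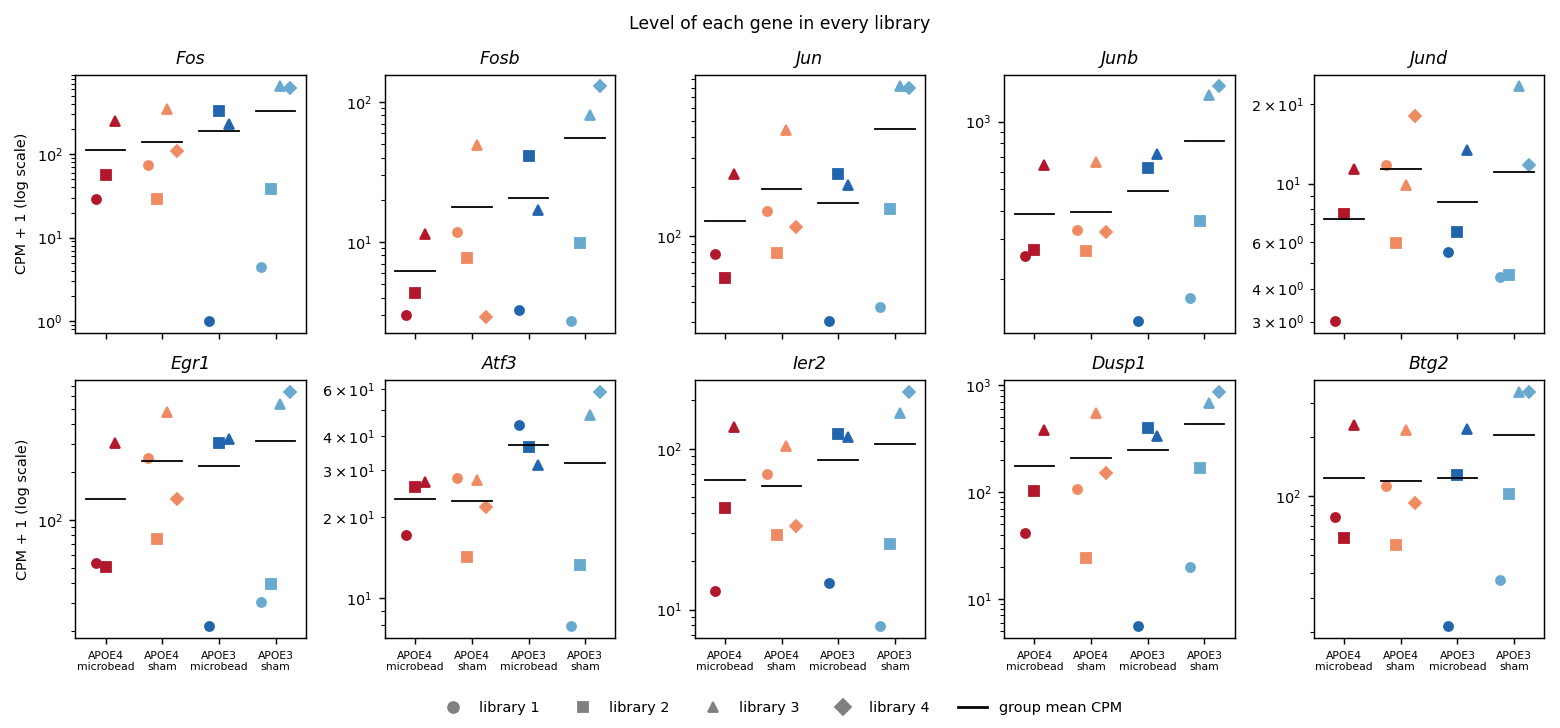
Each panel plots 1 gene, with CPM + 1 on a log scale by group and 1 point per library. The shape of a point gives the library number and the line the group mean. Within every group the points of most genes lie far apart, as for Fos in APOE3 sham with 3.44, 36.9, 653 and 626 CPM.

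Fos, the FOS subunit of AP-1 and the most used marker of recent cell activation, had 28.2, 54.8 and 252 CPM in APOE4 microbead libraries, against 73.7, 28.2, 344 and 109 CPM in APOE4 sham libraries. It had 0, 328 and 233 CPM in APOE3 microbead libraries, against 3.44, 36.9, 653 and 626 CPM in APOE3 sham libraries. High and low libraries occurred in every group, and all groups overlapped. APOE3 microbead library 1 held 0 reads of Fos, where 3 reads would be 6.78 CPM. The highest library, APOE3 sham 3, was at least 96.2-fold above that limit, which covers counting error only.

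Fosb, a paralogue of Fos, had a median of 9.57 CPM over the 14 libraries. It had 2.02, 3.32 and 10.4 CPM in APOE4 microbead libraries, against 10.8, 6.62, 47.9 and 1.89 CPM in APOE4 sham libraries. It had 2.26, 40.05 and 16.0 CPM in APOE3 microbead libraries, against 1.72, 8.78, 79.3 and 128 CPM in APOE3 sham libraries. Its 3 highest libraries were APOE3 sham 4, APOE3 sham 3 and APOE4 sham 3, while 4 libraries, in all 4 groups, held a single read.

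Jun, the partner of FOS proteins in AP-1 and a target of the JNK kinases, had 76.6, 54.8 and 238 CPM in APOE4 microbead libraries, against 142, 77.8, 442 and 113 CPM in APOE4 sham libraries. It had 29.4, 238 and 204 CPM in APOE3 microbead libraries, against 36.1, 146, 817 and 795 CPM in APOE3 sham libraries. As with Fos, APOE3 sham 3 and 4 were highest and APOE3 microbead 1 lowest, and the groups overlapped.

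Junb, a JUN paralogue, had 252, 269 and 641 CPM in APOE4 microbead libraries, against 329, 265, 662 and 321 CPM in APOE4 sham libraries. It had 129, 623 and 719 CPM in APOE3 microbead libraries, against 163, 359.9, 1307 and 1436 CPM in APOE3 sham libraries. In both APOE4 groups library 3 stood above the rest, and the groups overlapped. Jund, the JUN paralogue known for steadier expression, had 2.02 to 10.4 CPM in APOE4 microbead, 4.97 to 16.98 CPM in APOE4 sham, 4.52 to 12.4 CPM in APOE3 microbead and 3.44 to 22.4 CPM in APOE3 sham libraries. These rest on at most 11 reads a library.

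Atf3, a stress-induced repressor of the ATF/CREB family, had 16.1, 24.9 and 25.9 CPM in APOE4 microbead libraries, against 26.9, 13.2, 26.6 and 20.8 CPM in APOE4 sham libraries. It had 43.0, 35.6 and 30.2 CPM in APOE3 microbead libraries, against 6.87, 12.3, 46.8 and 57.5 CPM in APOE3 sham libraries. Unlike in the other genes, APOE3 microbead 1 was not among its low libraries, and only 2 libraries were above it. The APOE4 microbead and APOE3 microbead libraries did not overlap.

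Egr1, a zinc-finger transcription factor, had 52.4, 49.8 and 302 CPM in APOE4 microbead libraries, against 244, 74.5, 476 and 134 CPM in APOE4 sham libraries. It had 20.4, 304 and 323 CPM in APOE3 microbead libraries, against 29.2, 38.6, 537 and 640.2 CPM in APOE3 sham libraries. Its 6 highest libraries were also the 6 highest for Fos. Ier2, an early-response nuclear protein, had 12.1, 41.5 and 135 CPM in APOE4 microbead libraries, against 68.3, 28.2, 103 and 32.1 CPM in APOE4 sham libraries. It had 13.6, 122 and 117 CPM in APOE3 microbead libraries, against 6.87, 24.6, 167 and 225 CPM in APOE3 sham libraries. Both genes overlapped between all groups.

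Btg2, an antiproliferative protein that recruits the CCR4-NOT deadenylase, had 76.6, 59.8 and 229.9 CPM in APOE4 microbead libraries, against 111, 54.7, 218 and 90.6 CPM in APOE4 sham libraries. It had 20.4, 127 and 220.2 CPM in APOE3 microbead libraries, against 36.1, 102, 339.5 and 343 CPM in APOE3 sham libraries. Dusp1, the phosphatase that switches off p38 and JNK kinases, had 2 reads in its lowest library, APOE3 microbead 1. It had 40.3, 101.3 and 382 CPM in APOE4 microbead libraries, against 106, 23.2, 552 and 151 CPM in APOE4 sham libraries. It had 4.52, 400.5 and 337 CPM in APOE3 microbead libraries, against 18.9, 167, 683 and 873 CPM in APOE3 sham libraries. The 6 highest libraries of Btg2 and of Dusp1 were again those of Fos, and the groups overlapped.

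The same libraries were high or low for nearly the whole set. APOE3 sham 4 was the highest library for 7 of the 10 genes and APOE3 sham 3 for the other 3. APOE3 microbead 1 was the lowest for 6 genes and APOE3 sham 1 for 3. Together the 10 genes took 0.116% to 0.458% of the reads outside satellite genes in APOE4 microbead libraries and 0.123% to 0.618% in APOE4 sham libraries. They took 0.0521% to 0.458% in APOE3 microbead libraries and 0.0647% to 1.09% in APOE3 sham libraries. The library with the largest share, APOE3 sham 4, was 20.9-fold above the one with the smallest, APOE3 microbead 1. In sorted bulk samples, fewer cells expressing a gene and less of its RNA per cell cannot be told apart.

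**Figure D2:**
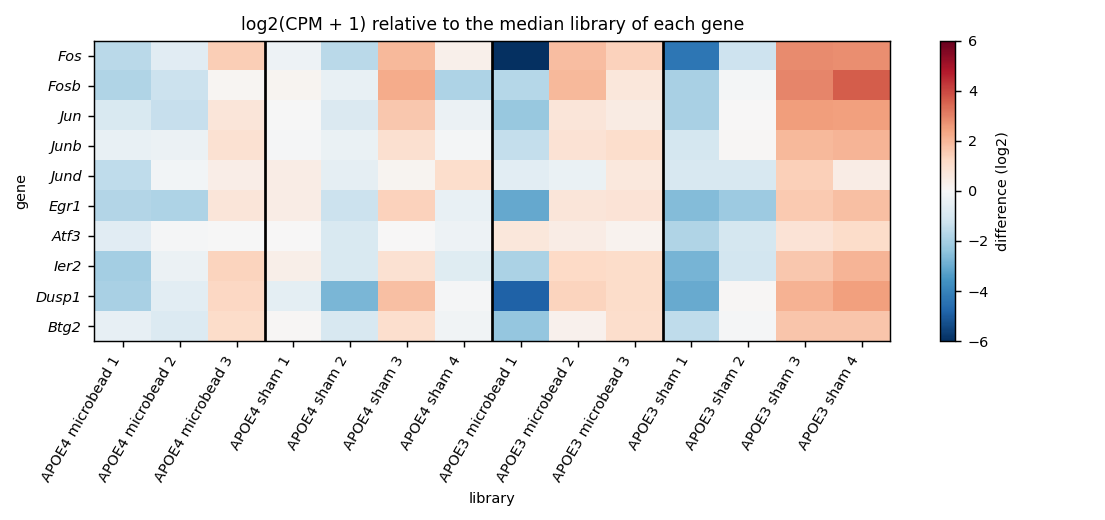
Colours show log2(CPM + 1) of each gene (rows) in each library (columns), relative to the gene's median library, with red above and blue below it and black lines between groups. APOE3 sham 3 and 4 are red for all 10 genes, APOE3 sham 1 is blue for all 10, and APOE3 microbead 1 is blue for all but Atf3.

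The comparison of microbead with sham libraries addresses the response of microglia in this glaucoma model, and the comparison of APOE4 with APOE3 the effect of genotype on it. None of the 9 genes tested passed an adjusted p under 0.05 in any of 7 comparisons (edgeR quasi-likelihood test, Benjamini-Hochberg adjustment over all 7605 genes), and none had an unadjusted p under 0.05. DESeq2 and limma-voom called 0 of the 9 as well. All 9 confidence intervals (95%) of the log2 fold change held 0 in each comparison. The comparisons share groups of libraries and are not independent of each other, so their values are given side by side. The genes vary together as well, so a count of genes above or below 0 is not a count of separate observations. No share of all genes above or below 0 was taken.

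After microbeads in APOE4, 0 of 9 genes were called, against 0.224% of all genes tested, and 0 of 9 had an unadjusted p under 0.05, against 6.5%. The log2 fold changes of APOE4 microbead against APOE4 sham ran from -1.62 for Fosb to 0.14 for Ier2, with 6 of 9 below 0 and a median of -0.24, against -0.00 for all genes. Fos was at -0.30 ± 1.53 (SE) with an interval of -3.69 to 3.09, which on a linear scale is 0.0776-fold to 8.49-fold. Junb was measured more tightly, at -0.02 ± 0.79 with an interval of -1.79 to 1.74. No gene had groups without overlap, against 9.06% of all genes tested. The median of the 9 turned to 0.34 without APOE4 sham 3, to 0.21 without APOE4 microbead 1 and to 0.04 without APOE4 microbead 2, and was -1.54 without APOE4 microbead 3.

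After microbeads in APOE3, 0 of 9 genes were called, against 5.22% of all genes tested, and 0 of 9 had an unadjusted p under 0.05, against 14.7%. Fold changes of APOE3 microbead against APOE3 sham were below 0 for 8 of 9 genes, with a median log2 of -0.73, against -0.02 for all genes. Jun had the lowest, -1.48 ± 1.09 (SE, adjusted p = 0.636), with means of 157 ± 112 CPM in APOE3 microbead and 448 ± 415 CPM in APOE3 sham libraries (SD, n = 3 and 4). Fosb was at -1.36 ± 1.16, Dusp1 at -0.80 ± 1.37, Fos at -0.79 ± 1.46 and Atf3 at 0.19 ± 0.47. No gene had groups without overlap, against 13.1% of all genes tested. The median of the 9 was -0.24 without APOE3 microbead 1, -0.26 without APOE3 sham 4 and -0.40 without APOE3 sham 3, and ran to -1.08 without APOE3 sham 1.

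**Figure D3:**
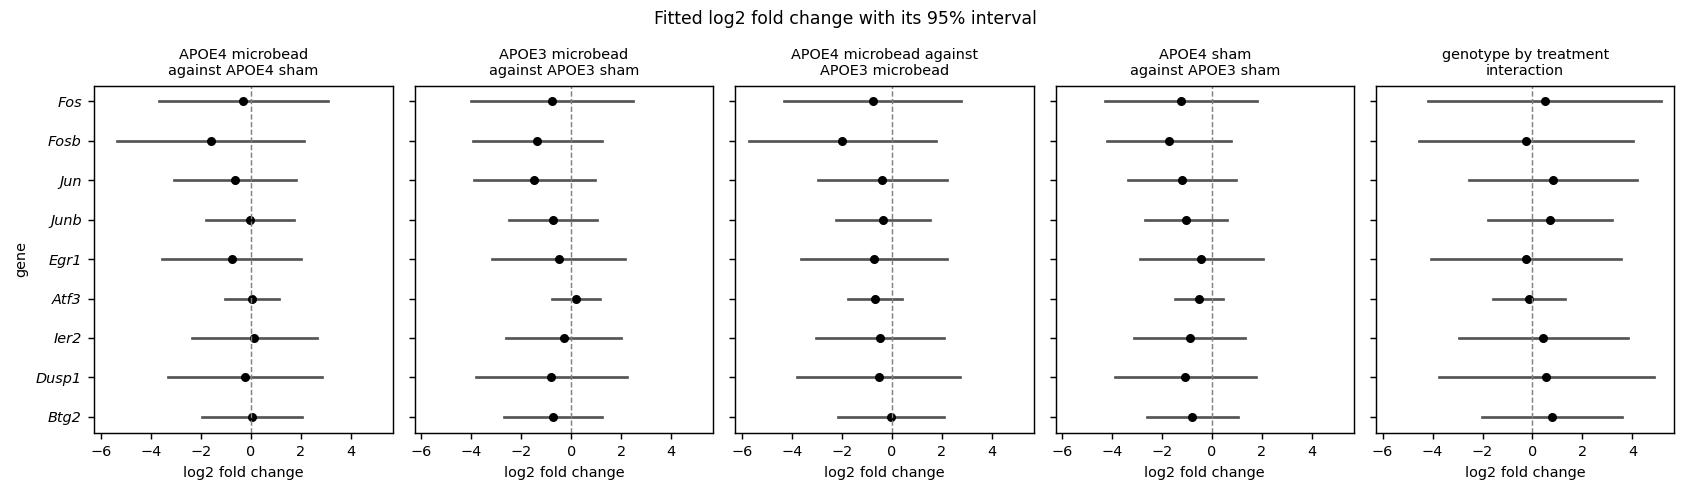
Points give the log2 fold change of each gene tested in 5 comparisons and lines its 95% interval, with 0 dashed. Every interval crosses 0, and that of Fos in APOE4 microbead against APOE4 sham runs from -3.69 to 3.09.

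Between the microbead groups, 0 of 9 genes were called, against 0.579% of all genes tested, and 0 of 9 had an unadjusted p under 0.05, against 9.84%. All 9 fold changes of APOE4 microbead against APOE3 microbead were below 0, with a median log2 of -0.52, against -0.00 for all genes. That median moved with each of the 6 libraries compared: it was -0.14, -0.24 and -1.67 without APOE4 microbead 1, 2 or 3, and -0.92, -0.09 and -0.26 without APOE3 microbead 1, 2 or 3. Fosb was at -1.98 ± 1.69 (SE), with means of 5.24 ± 4.49 CPM in APOE4 microbead and 19.4 ± 19.1 CPM in APOE3 microbead libraries (SD, n = 3 each). Atf3 was at -0.67 ± 0.52 (adjusted p = 0.791), with means of 22.3 ± 5.39 CPM in APOE4 microbead and 36.2 ± 6.41 CPM in APOE3 microbead libraries. It was the 1 gene of 10 whose groups did not overlap, against 14.5% of all genes tested. Summed monocyte markers were 451 to 1399 CPM in APOE4 microbead and 1382 to 6996 CPM in APOE3 microbead libraries, so for them the groups overlapped. Over 14 libraries, Atf3 and these markers had r = 0.377 (permutation test, adjusted p = 0.326 over 45 relations). The part of monocyte RNA in the result was not tested.

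Between the sham groups, 0 of 9 genes were called, against 0.0131% of all genes tested, and 0 of 9 had an unadjusted p under 0.05, against 4.39%. All 9 fold changes of APOE4 sham against APOE3 sham were below 0, with a median log2 of -1.05, against -0.00 for all genes. Fosb was at -1.72 ± 1.12 (SE), Fos at -1.25 ± 1.37, Jun at -1.21 ± 0.98 and Junb at -1.05 ± 0.74. Mean Fos was 139 ± 141 CPM in APOE4 sham and 329.7 ± 358 CPM in APOE3 sham libraries (SD, n = 4 each), so the SD was as large as the mean in both. The median of the 9 was -0.47 without APOE3 sham 4 and -0.70 without APOE4 sham 2, and ran to -1.44 without APOE4 sham 3. It depended on the method too, at -1.06 in DESeq2, -0.48 in limma-voom, -0.23 in limma on log2(TPM + 1) and -0.20 on log2(TPM + 0.1). The median of all genes was 0.22 in limma on log2(TPM + 1). No gene had groups without overlap, against 3.55% of all genes tested. The 2 APOE3 sham libraries with the highest levels lie above all APOE4 sham libraries for all 9 genes tested, while APOE3 sham 1 lay below all of them.

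The genotype by treatment interaction, the microbead effect in APOE4 minus that in APOE3, was called for 0 of 9 genes, against 0.092% of all genes tested, and 0 of 9 had an unadjusted p under 0.05, against 8.19%. Its median log2 value was 0.49, against 0.01 for all genes, with standard errors of 0.70 to 2.10. Fos had an interval of -4.17 to 5.14. The median changed sign in 6 of 25 other settings, among them fits without APOE4 microbead 3 (-0.75), APOE3 sham 4 (-0.06) or APOE3 microbead 1 (-0.01). Averaged over both genotypes, microbead against sham called 0 of 9 genes, against 4.63% of all genes tested (13.9% at an unadjusted p under 0.05), with a median log2 of -0.52. Averaged over both treatments, APOE4 against APOE3 called 0 of 9 genes, against 0.105% of all genes tested (7.0% at an unadjusted p under 0.05), with all 9 below 0 and a median log2 of -0.70. The microbead median was -1.17 without APOE4 microbead 3, and between -0.28 and -0.11 without APOE4 microbead 1, APOE4 sham 3, APOE3 microbead 1, APOE3 sham 3 or APOE3 sham 4. The genotype median was -1.27 without APOE4 microbead 3, -0.38 in limma-voom and -0.21 in limma on log2(TPM + 0.1). The smallest unadjusted p of the genes in these 2 averaged comparisons was 0.0952, for Fosb in APOE4 against APOE3 at -1.85 ± 1.01 (SE, adjusted p = 0.792).

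The spread between libraries of 1 group set the width of these intervals. Measured as the biological coefficient of variation (BCV, the relative SD between libraries beyond counting error), it was 1.403 for Fos, 1.20 for Dusp1, 1.15 for Fosb, 1.04 for Egr1, 0.970 for Ier2, 0.908 for Jun, 0.779 for Btg2 and 0.684 for Junb. The median of all genes tested was 0.27, and 8 of the 9 genes ranked among the 200 most variable of 7605, which are 2.63% of them. Fos ranked 55. The 100 genes nearest to Fos in level had a median BCV of 0.218. Atf3, at 0.383 and rank 1141, varied least of the 9. The median standard error of the fold change was 1.12 over the 9 genes in APOE4 microbead against APOE4 sham, and 0.40 over all genes.

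**Figure D4:**
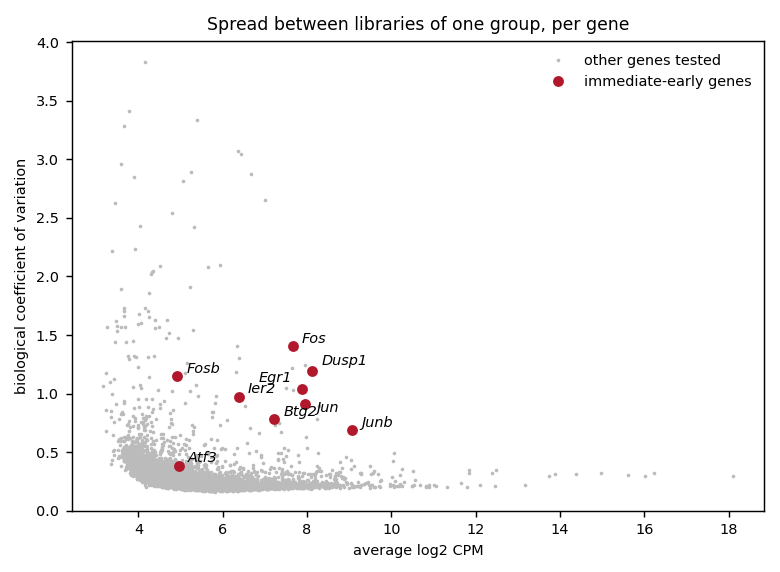
Each point is 1 gene tested, with its average log2 CPM on the x axis and its BCV on the y axis. Fos at 1.403 and 7 others of the 9 immediate-early genes (red) lie far above the bulk of genes (grey, median 0.27), and Atf3 at 0.383 lies closest to it.

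The genes varied together. Over 14 libraries, log2(CPM + 1) of Fos and Dusp1 correlated with Pearson's r = 0.965 and Spearman's rho = 0.969 (permutation p = 1e-05, the smallest that 100000 resamples can give, adjusted p = 1.89e-05 over 36 pairs). Jun and Junb had the highest r of all pairs, 0.974, and still 0.951 without the 2 libraries farthest from the median of Jun. All 28 pairs of the 8 genes other than Atf3 passed an adjusted p under 0.05, with r of 0.786 to 0.974. Taken as deviations from the group means, which removes any difference between groups, their r was 0.844 to 0.984. For log2(CPM + 1) itself, not the deviations, r was 0.73 to 0.964 without the 2 libraries farthest from the median of 1 gene of the pair.

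Atf3 followed the others less closely. Its 8 pairs had r of 0.475 to 0.73, and 5 of 8 passed (7 of 8 by Spearman's rho, each with a permutation p adjusted over the 36 pairs). Fos and Atf3 had r = 0.476 (permutation p = 0.0845, adjusted p = 0.0866) and rho = 0.622, and r was 0.896 without the 2 libraries farthest from the median of Fos, those with the fewest Fos reads. Dusp1 and Atf3 had r = 0.475, and 0.205 without the 2 libraries farthest from the median of Atf3. Whether r of Atf3 pairs differs from that of the other pairs was not tested. Pairs of genes outside the set were not tested either, so no share over all genes stands beside these counts.

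The level of the set moved with other properties of the libraries, in 45 relations of 9 genes with 5 measures, tested by permutation and adjusted together. The summed CPM of rod markers correlated with 8 of 9 genes at an adjusted p of 0.011 to 0.0256, with r of 0.701 for Dusp1 to 0.816 for Jun, and with Atf3 at r = 0.491 (adjusted p = 0.179). For Fos, r with rod markers was 0.753 and rho 0.824, r of deviations from group means was 0.755, and r without the 2 farthest libraries was 0.848. Summed rod markers were 246 to 689.6 CPM in APOE4 microbead, 349.5 to 1649 CPM in APOE4 sham, 161 to 731 CPM in APOE3 microbead and 242 to 1988 CPM in APOE3 sham libraries.

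The percent of reads on satellite genes correlated negatively with 4 of 9 genes by Pearson's r, Fos (r = -0.73, adjusted p = 0.021), Egr1 (r = -0.715), Dusp1 (r = -0.687) and Ier2 (r = -0.668). Only Fos and Egr1 passed by Spearman's rho too, both at an adjusted p of 0.0495. Total reads, the summed monocyte markers and the summed microglia markers passed with 0 of 9 genes, at r of -0.387 to -0.0475 for total reads, -0.34 to 0.377 for monocyte markers and -0.323 to 0.501 for microglia markers. These relations were computed for the 9 genes only, so no share over all genes stands beside the counts. Whether following rod markers or satellite reads is particular to this set was not tested. The part of rod RNA and of satellite reads in the levels of these genes was not tested.

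**Figure D5:**
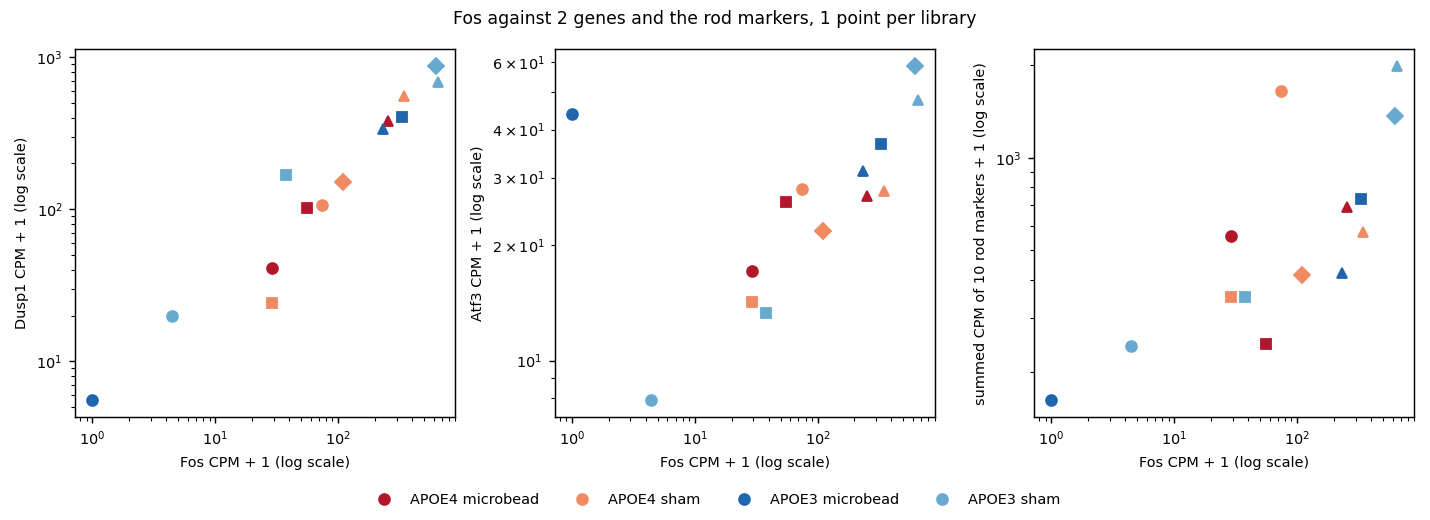
Fos CPM + 1 on the x axis is set against Dusp1, Atf3 and the summed rod markers on the y axes, all on log scales, with 1 point per library coloured by group. Dusp1 (r = 0.965) is higher in libraries with more Fos, and APOE3 microbead 1, at 0 CPM of Fos, stands apart from the other libraries for Atf3 with 43.0 CPM.

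Among the genes outside the set, those most like the mean log2 CPM of the 9 genes tested over 14 libraries included Zfp36, which codes for an mRNA-destabilising protein that binds AU-rich elements (r = 0.916), Adamts1, a secreted protease (r = 0.879), Tuba1a, an alpha tubulin (r = 0.861), and Arl14ep (r = 0.861). Over deviations from group means they included Klf2, a Krüppel-like factor (r = 0.932), Zfp36 (r = 0.928) and Socs3, an inhibitor of cytokine signalling (r = 0.919). These were picked as the highest values, so they carry no test. Some rest on few reads per library, 2 to 17 for Arl14ep, 1 to 71 for Adamts1 and 2 to 31 for Klf2. Zfp36 ranged over 40.7 to 498 CPM and was lowest in APOE3 microbead 1, as were 6 of the 10 genes, and highest in APOE3 sham 4, as were 7 of the 10.

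Lists of related genes were read from the same tests, and their genes were called only in APOE3 microbead against APOE3 sham and in microbead against sham over both genotypes. In APOE3 microbead against APOE3 sham, where the median log2 of all genes was -0.02, the medians were 0.01 for other AP-1 genes, 0.07 for EGR, NR4A and KLF factors, 0.05 for early-response and RNA decay genes and -0.91 for dual-specificity phosphatases. They were -0.01 for upstream kinases and factors, 0.45 for heat shock genes and 1.95 for cytokines. Of 13 other AP-1 family genes 8 were tested, and 1 fell in APOE3 microbead against APOE3 sham: Maf, a large MAF factor of macrophages, at -0.98 ± 0.27 log2 (SE, adjusted p = 0.0243), with means of 45.9 CPM in APOE3 microbead and 90.2 CPM in APOE3 sham libraries. It fell over both genotypes too (adjusted p = 0.0157), a call lost without APOE4 microbead 1 (0.0562) or APOE4 microbead 3 (0.0566). The call in APOE3 was lost when any 1 of the 3 APOE3 microbead libraries, APOE3 sham 1 or APOE3 sham 2 was left out, at an adjusted p of up to 0.112. Of 15 other EGR, NR4A and KLF factors 5 were tested and 0 were called in any comparison. Klf2 had the smallest p of these, with means of 8.62 CPM in microbead and 22.4 CPM in sham libraries over both genotypes (adjusted p = 0.149).

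Of 28 other early-response and RNA decay genes 21 were tested. Rhob, a small GTPase, fell in microbead against sham over both genotypes, at -0.73 ± 0.20 log2 (adjusted p = 0.0266), and the call was lost when any 1 of 7 libraries was left out, at an adjusted p of up to 0.0967. Of 9 other dual-specificity phosphatases 4 were tested. Dusp7, a phosphatase of ERK kinases, fell over both genotypes, at -1.27 ± 0.31 (adjusted p = 0.0115), with means of 15.9 CPM in microbead and 37.1 CPM in sham libraries, and kept its call whichever single library was left out. Dusp6, another ERK phosphatase, averaged 132 CPM in microbead and 213 CPM in sham libraries and was not called (adjusted p = 0.531).

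Of 30 kinases and factors upstream of the response 25 were tested, and 2 fell in APOE3 microbead against APOE3 sham. Mef2c, a MADS-box factor of microglia, fell by 1.34 ± 0.22 log2 (adjusted p = 0.000234), to 75.3 CPM in APOE3 microbead, against 192 CPM in APOE3 sham libraries, and it fell over both genotypes too (adjusted p = 0.000687). Summed microglia markers were lower in the same libraries, at 7896 to 12961 CPM in APOE3 microbead and 14877 to 20126 CPM in APOE3 sham libraries, as was P2ry12, at 167 to 382 CPM in APOE3 microbead and 789 to 1062 CPM in APOE3 sham libraries. The part of this in the values of Mef2c, Mapk8 and Maf was not tested. Mapk8, which codes for JNK1, fell by 1.72 ± 0.42 log2 (adjusted p = 0.0113), to 10.4 CPM in APOE3 microbead, against 38.3 CPM in APOE3 sham libraries. Mapk8 was not called in 8 of 26 other settings, among them without APOE3 microbead 1 (adjusted p = 0.0684) and in limma-voom (adjusted p = 0.0712). The interaction of neither was called (adjusted p = 0.285 for Mef2c and 0.349 for Mapk8).

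Of 16 heat shock genes linked to dissociation 13 were tested. Hspa8, a constitutive chaperone, rose in APOE3 microbead against APOE3 sham by 0.69 ± 0.20 log2 (adjusted p = 0.0434), with 1058, 1081 and 533 CPM in APOE3 microbead libraries, against 482 to 626 CPM in APOE3 sham libraries. It was no longer called without APOE3 microbead 1 or 2, nor without 9 other single libraries, at an adjusted p of up to 0.272. In limma-voom it was not called either (adjusted p = 0.0709). Hspa1a, the inducible chaperone, averaged 2.69 CPM in APOE4 microbead and 39.5 CPM in APOE4 sham libraries and was not called (adjusted p = 0.215), and reads can be split between it and its near copy Hspa1b.

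Of 12 cytokine genes seen in activated dissociated microglia 7 were tested, and 2 rose in APOE3 microbead against APOE3 sham, Ccl12 and Il1b, and 3 over both genotypes, Ccl12, Il1b and Ccl2. Ccl12, a monocyte chemoattractant, rose by 2.47 ± 0.48 log2 (adjusted p = 0.009), with 362, 295 and 336 CPM in APOE3 microbead libraries, against 18.9, 24.6, 95.5 and 95.9 CPM in APOE3 sham libraries. Over both genotypes it rose by 2.49 ± 0.34 log2 (adjusted p = 0.00134), and both calls held whichever single library was left out. Il1b (adjusted p = 0.00462) had 11, 19 and 16 reads in APOE3 microbead libraries, against 0, 0, 1 and 1 reads in APOE3 sham libraries. Its call over both genotypes was lost when any 1 of 10 libraries was left out, at an adjusted p of up to 0.0917, and in limma-voom (adjusted p = 0.113). Ccl2, another monocyte chemoattractant, rose over both genotypes by 1.75 ± 0.43 log2 (adjusted p = 0.0375). That call was lost when any 1 of 10 libraries was left out, at an adjusted p of up to 0.0969, and in limma-voom (adjusted p = 0.0546). The 9 immediate-early genes tested, by contrast, had a median log2 of -0.73 in APOE3 microbead against APOE3 sham, and whether the 2 lists differ was not tested. Without both APOE3 microbead 1 and 2, the libraries with the most monocyte marker RNA, 1 APOE3 microbead library remained, assumed to vary like the other groups, and none of the 6 genes named for that comparison was called. The log2 fold changes there were 2.503 for Ccl12, -1.13 for Mef2c, -2.06 for Mapk8, -1.01 for Maf and -0.05 for Hspa8, and Il1b had 16 reads in the library that remained.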

How the data were processed

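Salmon 1.4.0, DESeq2 1.30.1, R 4.0.3 and the mm10 build are named, per the submitters' processing notes, without their roles. The deposited files hold estimated counts per transcript of each library, and the series table holds TPM per gene as deposited. GENCODE M21 (GRCm38) gave a gene for 116023 of the 116945 transcripts, and the estimated counts were summed per gene and rounded. As a check of column names, gene TPM summed from a library file equalled the column of that name (tolerance 1%) in 99.2% to 99.4% of genes, against 2.11% or less for every other column.

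Genes were kept by filterByExpr (minimum count 10, minimum total 15), and groups compared with the quasi-likelihood test of edgeR 4.0.16 (R 4.3.3; robust, TMM, 4 group means over 14 libraries, two-sided), checked on simulated data. Called means an adjusted p under 0.05. SE follow from the F statistic. Correlations used permutation tests with 100000 resamples. Alternatives were DESeq2 1.42.0, limma 3.58.1 (voom, and log2(TPM + 1 or 0.1)), other scalings, filters and length offsets, a replicate block and left-out libraries. Named genes outside the set were up to 4 per list by smallest p, of which those called and a few others are given, and the 5 most alike by each measure. Some genes under this rule are not reported here. The members and lists were chosen with earlier results of these data known. Intervals for counts cover counting error only.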

Additional observations from a re-analysis of the deposited data

Results flagged for a closer look

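Junb in APOE4 sham library 3 had 662 CPM, far from the other APOE4 sham libraries at 329, 265 and 321 CPM. Its gap to the next library was 0.839 of the group's range, above Dixon's 95% critical value of 0.829 for 4 samples. Chance gives about 1 such value in 20, and 20 values (10 genes in 2 sham groups) were examined, of which this was the 1 that passed. The same library was above the other 3 APOE4 sham libraries for Fos, Fosb, Jun, Egr1, Ier2, Dusp1 and Btg2 too.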

How the results depend on the processing

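No gene of the set was called in any comparison in any of 26 other settings, and the smallest adjusted p was 0.462, for Jun in APOE3 microbead against APOE3 sham without APOE3 sham replicate 1. Unadjusted p under 0.05 occurred for 7 values in 4 of these settings, for Atf3 and Fosb only, all in APOE4 against APOE3 (sham, or mean of both treatments), with a smallest of 0.0149. Of 63 fold changes, 26 kept their sign in every setting, and 144 of 1608 values had the other sign. The median of the set was below 0 in all settings of APOE3 microbead against APOE3 sham, APOE4 against APOE3 within microbead and sham, and both averaged comparisons. All settings use the same libraries or a part of them, so they are not independent of each other. Library totals in place of TMM moved the median of all genes to -0.23 in APOE4 microbead against APOE4 sham, 0.16 in APOE4 sham against APOE3 sham and -0.21 in the interaction, beside medians of the set of -0.51, -1.001 and 0.30.

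Correlations between libraries showed no pairing by the replicate numbers of the labels: 19 pairs with the same number had correlations of -0.143 to 0.0987. In this set, library 3 was among the 6 highest for 10 of 10 genes in APOE3 sham and APOE3 microbead. In APOE4 sham and APOE4 microbead it was so for 8 of 10. APOE3 sham 4 and APOE3 microbead 2 were also among the 6 highest, for 10 and 9 genes. Because the genes vary together, these counts are not separate observations, and no share over all genes was taken. The labels do not state what the numbers stand for, and their link with the levels was not tested. With the replicate block 0 genes of the set were called in any comparison, and the median of the interaction was -0.38. In APOE3 microbead against APOE3 sham the block moved the median from -0.73 to -0.08, with values of -0.76 for Jun to 0.64 for Atf3. Fos (0.40), Egr1 (0.46) and Ier2 (0.36) were above 0 there too, while Fosb, Junb, Dusp1 and Btg2 were below. The median moved from -1.05 to -0.50 between sham groups and from -0.52 to -0.14 for the mean microbead effect. Between microbead groups it moved from -0.52 to -0.71.

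Calls among all genes, the background of the set, ranged across settings from 0 to 53 against 17 for APOE4 microbead against APOE4 sham, 12 to 478 against 397 for APOE3 microbead against APOE3 sham, 1 to 128 against 44 between microbead groups, 0 to 11 against 1 between sham groups, 0 to 61 against 7 for the interaction, 3 to 411 against 352 for the mean microbead effect and 1 to 49 against 8 for the mean genotype effect. Low depth limits Jund, with at most 11 reads in any library, and the lowest libraries of Fos (0 reads), Fosb (1 read) and Dusp1 (2 reads).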
